A study of Mus musculus with 59 samples.

Results

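The genes described here are the neighbours of *Ezh2* on mouse chromosome 6: the protein-coding genes of the GENCODE annotation that lie in a window of 9.5 Mb around it and are listed in at least 1 count file of the *Ezh2* cross, with *Ezh2* itself left out. There were 52 of them, of 77 protein-coding genes annotated in this window and of 22134 genes with a listed transcript in the series. They span chr6:42623016-51590679 of GRCm38, from *Tcaf2* to *Snx10*. They were chosen by position and by having a listed count, not by any difference between genotypes. The question asked of them was whether the neighbours of a deleted gene change in its own knockout and not in another, and whether this depends on how far they lie from it.

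The data were RNA-seq counts of 14 single epiblasts, the pluripotent tissue that forms the embryo proper, dissected at E6.25. In the *Ezh2* cross, 3 knockout epiblasts labelled Ezh-/- were compared with 3 controls labelled Ezh+/+, and in the *Ehmt2* cross 4 knockouts labelled G9a-/- with 4 controls labelled G9a+/+. All came from matings of heterozygous parents on a mixed background, the methods allow controls to be heterozygous, and the animals of the *Ehmt2* cross also descend from a reporter line carrying *ΔPE-Pou5f1-EGFP*. The *Ezh2* allele was a previously described one, the *Ehmt2* allele derived from a published conditional allele, and the ChIP-seq and bisulfite libraries of the series were not analysed here. The study states that the *Ezh2* epiblasts came from 3 litters and the *Ehmt2* epiblasts from 4. The labels do not say which epiblasts shared a litter, so no fit had a term for litter. The p-values of a cross measure the spread between the epiblasts of that cross. Those of the difference between the crosses measure the spread between all 14.

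EZH2 is the catalytic subunit of Polycomb repressive complex 2 (PRC2), which methylates lysine 27 of histone H3 at silent developmental genes, often at promoters dense in CG dinucleotides. EHMT2, also called G9a, methylates lysine 9 of histone H3 and belongs to a separate silencing system. A targeted allele is inherited together with the DNA that flanks it, so the genes next to the deleted locus are linked to the knockout genotype in a way that genes on other chromosomes are not.

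Of the 52 neighbours, 7 lay at lower coordinates than *Ezh2* and 45 at higher ones. On the low side stand, among others, *Tcaf2* and *Tcaf1*, which encode regulators of a cold-sensing ion channel, the GTPase exchange factor gene *Arhgef5*, the neural adhesion gene *Cntnap2* and the ubiquitin ligase scaffold gene *Cul1*. On the high side follow *Pdia4*, a disulfide isomerase gene of the endoplasmic reticulum, a run of zinc finger genes, the *Gimap* family of immune GTPases, and a stretch with the RNA-binding genes *Igf2bp3*, *Tra2a* and *Hnrnpa2b1* and the heterochromatin protein gene *Cbx3*. The 25 annotated genes that no *Ezh2* file lists were 17 olfactory receptor genes, *Gimap3* and *Gimap7*, and 6 others.

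The start regions of 4 neighbours are shown because they belong to the gene nearest to *Ezh2* and to the 3 genes that came closest to a difference in its knockout. Each is the RefSeq window of 300 bases on GRCm38.p6, from 250 bases before the annotated start to 50 after it, 5′ to 3′ on the strand of the gene, with every CG dinucleotide in capitals. CG reads the same on both strands. *Cul1* is at chr6:47454069-47454368 on the plus strand, *Zfp956* at chr6:47953140-47953439 on the plus strand, *Snx10* at chr6:51523653-51523952 on the plus strand and *Tcaf2* at chr6:42644992-42645291 on the minus strand.
Cul1: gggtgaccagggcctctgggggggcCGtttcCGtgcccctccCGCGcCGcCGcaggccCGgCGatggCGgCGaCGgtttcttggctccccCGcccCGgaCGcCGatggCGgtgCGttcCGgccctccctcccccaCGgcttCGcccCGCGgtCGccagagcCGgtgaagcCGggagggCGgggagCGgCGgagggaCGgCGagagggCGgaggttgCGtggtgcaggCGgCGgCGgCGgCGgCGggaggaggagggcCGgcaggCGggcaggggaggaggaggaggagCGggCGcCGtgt
Zfp956: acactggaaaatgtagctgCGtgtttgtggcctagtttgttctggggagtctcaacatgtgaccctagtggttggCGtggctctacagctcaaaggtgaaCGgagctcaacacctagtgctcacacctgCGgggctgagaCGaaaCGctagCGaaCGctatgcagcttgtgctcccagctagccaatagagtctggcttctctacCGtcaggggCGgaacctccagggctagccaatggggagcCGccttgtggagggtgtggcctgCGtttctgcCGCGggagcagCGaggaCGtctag
Snx10: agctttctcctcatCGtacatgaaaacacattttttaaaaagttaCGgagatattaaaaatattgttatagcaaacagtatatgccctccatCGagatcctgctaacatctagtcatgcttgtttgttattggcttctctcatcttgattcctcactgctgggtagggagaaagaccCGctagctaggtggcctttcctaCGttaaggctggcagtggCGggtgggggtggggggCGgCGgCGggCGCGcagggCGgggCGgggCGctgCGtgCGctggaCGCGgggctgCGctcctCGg
Tcaf2: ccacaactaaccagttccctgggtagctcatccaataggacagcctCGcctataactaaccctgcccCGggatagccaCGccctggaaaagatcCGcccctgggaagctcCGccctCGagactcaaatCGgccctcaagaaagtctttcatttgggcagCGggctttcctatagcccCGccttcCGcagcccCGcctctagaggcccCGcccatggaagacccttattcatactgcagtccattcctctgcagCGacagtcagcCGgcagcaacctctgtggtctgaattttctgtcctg

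The *Cul1* window held 43 CG dinucleotides, a number that 2.61% of all 32851 windows in the table reached. The windows of *Snx10*, *Zfp956* and *Tcaf2* held 20, 16 and 14, reached by 26.5%, 33.0% and 36.3% of all windows. A window was found for 45 of the 52 neighbours, *Rarres2*, *Repin1*, *AI854703*, *Gm28053*, *Lrrc61* and *Malsu1* being among the exceptions. For *Zfp775* and *Osbpl3* it belonged to another start more than 10 kb away from that of the transcript counted. The start of the window was also 735, 362, 351 and 320 bases away from it for *Zfp467*, *Zfp786*, *Zfp282* and *Zfp777*. For *Tcaf2*, whose window is printed, it was 213 bases away. The median per window was 17 CG dinucleotides over these neighbours, chosen with a listed count, and 7 over all windows, chosen without one. It was 32.5 for the 8 neighbours with a mean level of at least 100 CPM (read count relative to the scaled library size), with a range of 24 to 43, and 8.5 for the 8 under 1 CPM, with a range of 1 to 25. The 6 *Gimap* windows held 2 to 8, and the 10 zinc finger windows 14 to 51.

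*Ezh2* itself, on the minus strand at chr6:47530139-47595341, was measured first, as the check of the genotypes. Its transcript stood at 132, 166 and 276 CPM in the controls of its cross and at 28.8, 29.4 and 39.97 CPM in the knockouts. Every knockout lay below every control, and the log2 fold change was -2.55 (SE 0.27, 95% interval -3.16 to -1.93). With edgeR's quasi-likelihood test and adjustment over 14010 genes the adjusted p was 0.0789, and over the alternatives it ranged from 3.41e-22 to 0.684, so the call at 0.05 depended on the fit even for the deleted gene. The reads left in the knockouts cannot be placed within the gene from these counts. *Ezh2* was at 199 to 253 CPM in controls and 192 to 229 CPM in knockouts of the *Ehmt2* cross (log2 fold change -0.15, SE 0.10, adjusted p = 0.523, edgeR), and the difference between the 2 effects was -2.38 (SE 0.28, adjusted p = 0.00247, edgeR).

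*Ehmt2*, on chromosome 17, was at 25.4, 27.7, 38.7 and 77.9 CPM in the controls of its own cross and 11.8, 11.2, 7.96 and 21.4 CPM in the knockouts. Every knockout lay below every control (log2 fold change -1.65, SE 0.22, adjusted p = 0.00354, edgeR).

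Of the other PRC2 genes, which lie outside the window, *Eed* had a log2 fold change of -0.47 (SE 0.16), *Suz12* of -0.21 (SE 0.11) and *Ezh1* of 0.27 (SE 0.22) in the *Ezh2* knockouts, with adjusted p-values of 0.506, 0.692 and 0.810 (edgeR).

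With 1 transcript per gene, the libraries held 12495094 to 28434545 counts. The deepest 2 were control 4 and knockout 4 of the *Ehmt2* cross, which stood apart from their group: the chi-square per degree of freedom between libraries of 1 group was 156 to 206 for pairs with a number 4 and 17.7 to 47.6 for all other pairs, so no 2 libraries agreed within sampling noise. All 8 epiblast markers were listed, and their summed level was 5867 to 6446 CPM in the *Ezh2* controls and 4691 to 6118 CPM in the knockouts. That sum was 5968 to 6814 CPM in the *Ehmt2* controls and 3533 to 4934 CPM in the knockouts, without overlap. *Dnmt3b* alone made 3724 to 5066 CPM of it in these controls and 2406 to 3449 CPM in these knockouts. The other epiblast markers summed to 1748 to 2434 CPM against 1127 to 1795 CPM, with overlap. The 10 visceral endoderm markers summed to 988 CPM in *Ezh2* control 2 and 2213 CPM in *Ezh2* knockout 1, against 18.3 to 36.6 CPM in the other 4 epiblasts of that cross, with *Cubn* the highest marker in both. The 8 extraembryonic ectoderm markers summed to 164, 202 and 268 CPM in the *Ezh2* controls and 252, 354 and 506 CPM in the knockouts. *Eomes* alone made 158 to 243 CPM of this in the controls and 166 to 338 CPM in the knockouts. The others summed to 5.63 to 24.9 CPM in the controls and 85.9 to 167 CPM in the knockouts, without overlap. These extraembryonic ectoderm markers reached 1504 CPM in knockout 1 of the *Ehmt2* cross, against 50.5 to 408 CPM in the other 7, and *Sfmbt2* alone made 969 CPM of it. *Sfmbt2* was also the highest of them in knockouts 2 and 3, and *Eomes* in knockout 4 and in each control. The 6 primitive streak and mesoderm markers summed to 34.7 to 101 CPM in the *Ezh2* controls and 80.4 to 164 CPM in the knockouts. The part of these marker levels in the comparisons of the neighbours was not tested. In a whole epiblast, fewer cells of a type and less RNA per cell cannot be told apart.

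In the *Ezh2* cross, 44 of the 52 neighbours passed the filter on low counts and were tested, and none was called. A call required an adjusted p under 0.05 and a log2 fold change beyond 1.4, and edgeR called 0% of the 14010 genes. DESeq2 called 48 of those genes (0.343%) and none of the neighbours. The lowest adjusted p among the neighbours was 0.506. At an unadjusted p under 0.05, 1 neighbour was higher in the knockouts (*Tcaf2*), where 4.34% of all genes tested were, and 2 were lower (*Snx10* and *Zfp956*), where 3.65% of all genes were. Those shares are 2.27% and 4.55% of the neighbours, close to the background. The median log2 fold change of the neighbours was 0.06, with 25 above and 19 below 0. It was 0.03 for the 596 tested protein-coding genes elsewhere on chromosome 6. For all genes it was 0.01, with 7214 above and 6796 below 0. The median size of the change, regardless of sign, was 0.25 for the neighbours, 0.23 elsewhere on chromosome 6 and 0.23 for all genes.

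*Cul1*, the scaffold of the SCF ubiquitin ligases and the nearest neighbour, ends 4.0 kb from the edge of *Ezh2*. It was at 229, 198 and 224 CPM in the controls and 203, 203 and 212 CPM in the knockouts of the *Ezh2* cross. The groups overlapped, and the log2 fold change was -0.08 (SE 0.10, 95% interval -0.31 to 0.16), which bounds a change of the gene next to the deletion between 0.807-fold and 1.12-fold. For the *Ehmt2* cross the values were 213, 229, 242 and 190 CPM in the controls and 265, 206, 242 and 241 CPM in the knockouts, again with overlap (log2 fold change 0.13, SE 0.11). The effects in the 2 crosses differed by -0.19 (95% interval -0.52 to 0.13, adjusted p = 0.742, edgeR).

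*Pdia4*, 201 kb on the other side, was at 245, 217 and 198 CPM in the *Ezh2* controls and 196, 212 and 191 CPM in the knockouts. The groups overlapped, with a log2 fold change of -0.14 (SE 0.11, 95% interval -0.40 to 0.11). *Cntnap2*, 226 kb below *Ezh2* and one of the longest genes of the genome, was low, at 3.50, 10.3 and 8.45 CPM in controls and 3.84, 4.95 and 9.91 CPM in knockouts. Its interval was correspondingly wide, from -1.41 to 0.92 around a log2 fold change of -0.25.

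The zinc finger group, KRAB-type and related DNA-binding genes for the most part, comprised 11 neighbours, and all 11 were tested. They formed the bulk of the genes within 0.5 Mb of *Ezh2*, where *Zfp786*, *Zfp398*, *Zfp282*, *Zfp212*, *Zfp956*, *Zfp777* and *Zfp746* follow each other. In the *Ezh2* cross 1 of the 11 was lower at an unadjusted p under 0.05 and none was higher, their median log2 fold change was 0.05, and they ranged from -0.90 (*Zfp956*) to 1.09 (*Zfp398*). *Zfp398* was at 3.78, 1.02 and 3.03 CPM in controls and 7.45, 5.90 and 3.41 CPM in knockouts, with overlap and an SE of 0.59. *Zfp777* was at 6.49, 8.09 and 4.19 CPM against 13.9, 12.9 and 4.59 CPM (log2 fold change 0.74, SE 0.47). *Zfp746*, a gene for a repressor linked to Parkin, was at 16.3, 20.4 and 26.2 CPM against 17.7, 15.1 and 26.8 CPM (log2 fold change -0.08, SE 0.29).

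**Figure D1:**
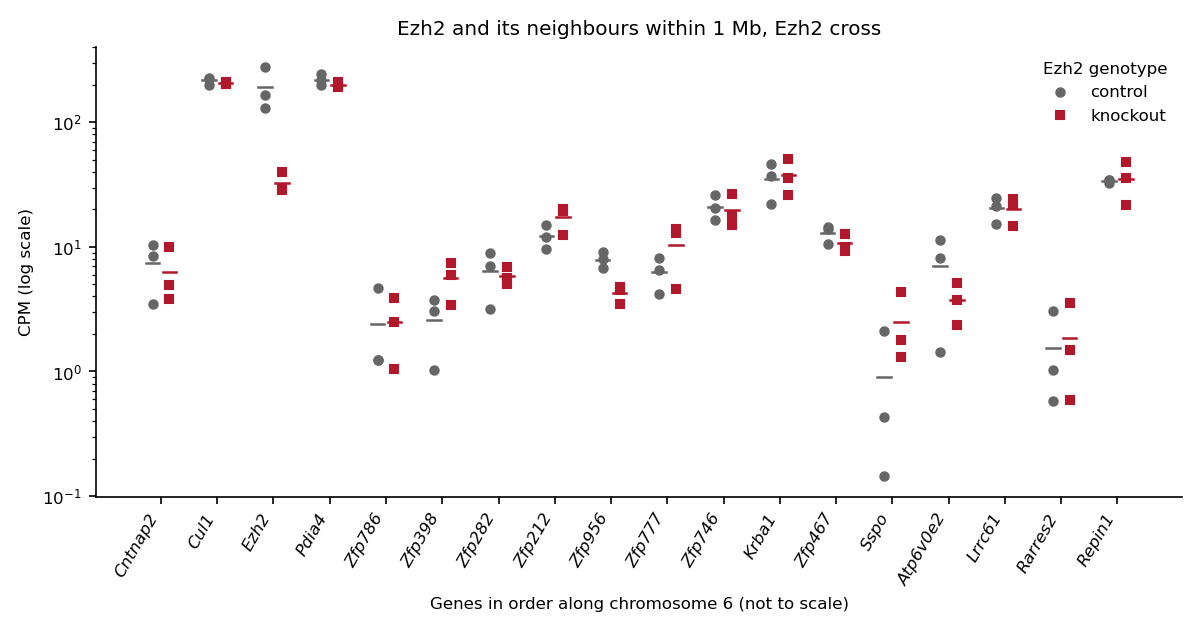
CPM (log scale) of *Ezh2* and of its 17 tested neighbours within 1 Mb, in order along the chromosome, in the 3 control (grey circles) and 3 knockout (red squares) epiblasts of the *Ezh2* cross; bars are group means. *Ezh2* has means of 191 and 32.7 CPM, while of its neighbours only *Zfp956* has all knockouts on one side of the controls.

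*Zfp956*, 358 kb above *Ezh2*, was the only neighbour within 1 Mb whose groups did not overlap in the *Ezh2* cross. It was at 6.78, 9.04 and 7.94 CPM in the controls and 3.45, 4.75 and 4.53 CPM in the knockouts, from 44 to 124 counts per library. The knockouts lay below the controls, at 0.537-fold (95% interval 0.304 to 0.948), with an unadjusted p of 0.0352 in edgeR's test and an adjusted p of 0.575. The exact two-sided permutation test gave p = 0.10, the smallest that 3 against 3 allows. Its groups overlapped in the *Ehmt2* cross, at 2.94 to 7.15 CPM in controls and 2.20 to 6.21 CPM in knockouts, and the effects in the 2 crosses differed by -0.43 (95% interval -1.65 to 0.80). Among the fits that left out 1 epiblast, its unadjusted p remained under 0.05 without control 1 and without knockout 2.

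The 7 tested neighbours between 0.5 and 1 Mb had a median log2 fold change of 0.06. *Krba1* and *Repin1*, the latter a zinc finger gene, and the leucine-rich repeat gene *Lrrc61* had log2 fold changes of 0.09, 0.06 and -0.01, each with a 95% interval inside 2-fold. *Zfp467* was at 0.824-fold, also within that bound. *Sspo*, which encodes a large secreted glycoprotein of the spinal fluid, had the largest value, 1.47, on 6, 29 and 2 counts in the controls and 23, 64 and 20 in the knockouts, with overlap and an SE of 0.96. Leaving out 1 epiblast moved it to 3.08 without control 2, 0.96 without control 3 and 0.79 without knockout 2. *Atp6v0e2*, a proton pump subunit gene, had the lowest, -0.89 (SE 0.68), and was at -1.38 without control 1 and -0.34 without control 3. *Rarres2*, the chemerin gene, was at 0.259 (SE 0.864) and overlaps *Lrrc61* on the opposite strand, so that reads of the 2 cannot be told apart in libraries not stated to keep strand.

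By distance, the median log2 fold change in the *Ezh2* cross was -0.08 for 10 neighbours under 0.5 Mb, 0.06 for 7 at 0.5 to 1 Mb, 0.27 for 14 at 1 to 2.5 Mb and 0.02 for 13 beyond 2.5 Mb. The median size was 0.20, 0.26, 0.27 and 0.29 in that order, the smallest being that of the nearest bin. Across the 44 neighbours, the Spearman rank correlation of the size with the distance was 0.03, whereas that of the size with the mean CPM was -0.33, and both are descriptions across genes that share the same 6 libraries. In the *Ehmt2* cross the median log2 fold changes in the same bins were -0.21, -0.60, 0.25 and -0.22, for 10, 7, 15 and 12 neighbours. The 7 at 0.5 to 1 Mb ran from -1.71 to 0.07 there. The median sizes in that cross were 0.29, 0.60, 0.40 and 0.32, and the rank correlations were 0.10 with distance and -0.61 with level.

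**Figure D2:**
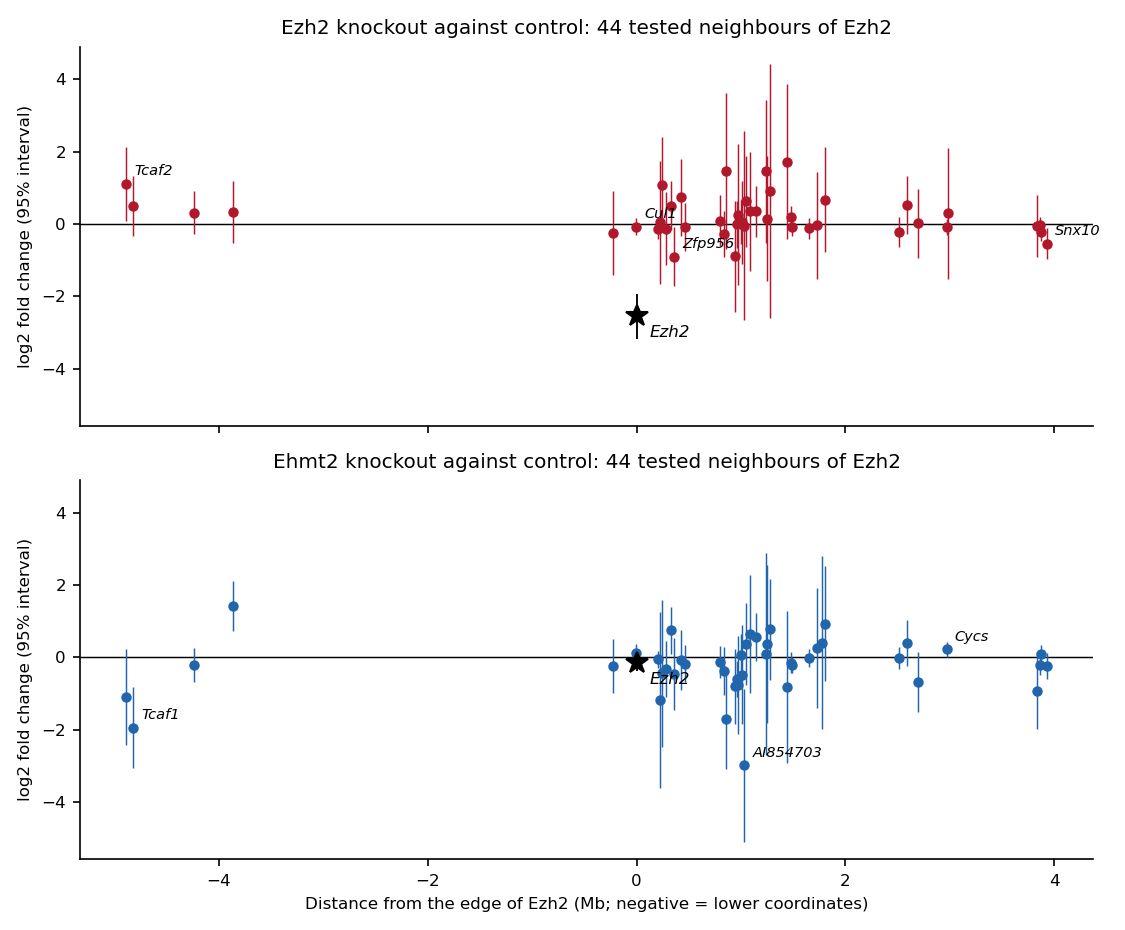
log2 fold change (points) with 95% interval (lines) of the tested neighbours against their distance from the edge of *Ezh2* in Mb, in the *Ezh2* cross (top, red) and the *Ehmt2* cross (bottom, blue), with *Ezh2* as a black star. *Ezh2* is at -2.55 in its own cross. The median of the neighbours is 0.06 there, with 25 above and 19 below 0. In the *Ehmt2* cross the median is -0.16, with 16 above and 28 below 0.

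Two-sided intervals show how much change each neighbour leaves room for. In the *Ezh2* cross the 95% interval lay wholly within 2-fold for 18 of the 44 neighbours (40.9%), beside 53.2% of all genes, and for 7 of the 17 within 1 Mb: *Cul1*, *Pdia4*, *Zfp746*, *Krba1*, *Zfp467*, *Lrrc61* and *Repin1*. The 9 neighbours with a mean of at least 100 CPM all did, with a median half-width of 0.24 on the log2 scale and changes from -0.23 to 0.20. For the 25 under 10 CPM the median half-width was 1.44, and 1 of them was bounded within 2-fold. A change of the size of that of *Ezh2* was thus outside the interval of the abundant neighbours, and changes of less than 2-fold were not detectable for most of the scarce ones at this depth.

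**Figure D3:**
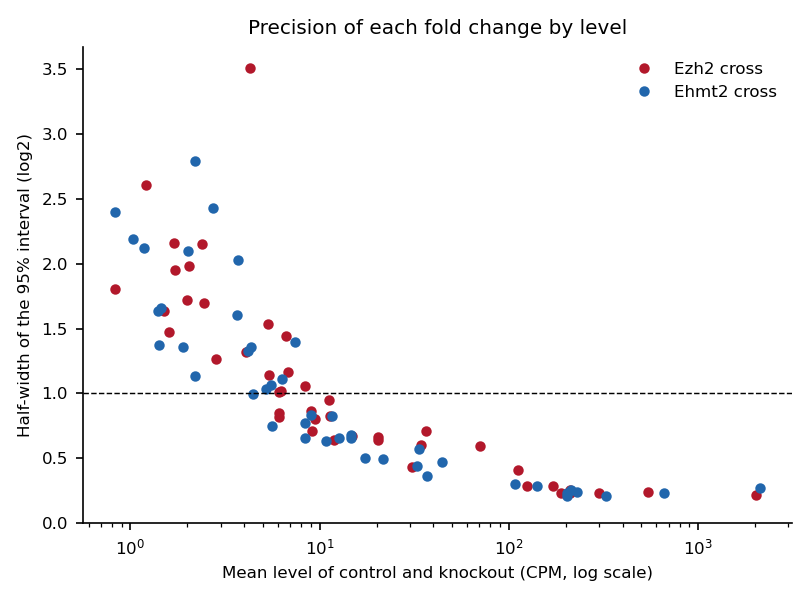
Half-width of the 95% interval of the log2 fold change against the mean level (CPM, log scale) for each neighbour tested in the *Ezh2* (red) and *Ehmt2* (blue) cross; the dashed line marks a half-width of 1, which is 2-fold. The 9 neighbours at 100 CPM or more have half-widths of 0.22 to 0.41 in the *Ezh2* cross, and those under 10 CPM reach 3.50.

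In 6 of the 44 neighbours the *Ezh2* groups did not overlap. Every knockout lay above every control for 3, *Tcaf2*, *Gpnmb* and *Malsu1*, where 7.28% of all genes did so, and below every control for 3, *Zfp956*, *Cbx3* and *Snx10*, where 7.52% of all genes did so. Both shares are 6.82% of the neighbours, near the background.

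*Snx10*, a sorting nexin of endosomes at 3.93 Mb, was at 35.5, 33.2 and 41.1 CPM in the *Ezh2* controls and 22.5, 25.4 and 27.4 CPM in the knockouts. The gap between the groups was wider than the range within the knockouts and narrower than the range within the controls. It was at 0.687-fold (95% interval 0.510 to 0.926), with the lowest adjusted p of the neighbours, 0.506 (edgeR; 0.330 to 0.781 over the alternatives). Its groups overlapped in the *Ehmt2* cross, at 32.2 to 45.3 CPM in controls and 27.9 to 42.9 CPM in knockouts, and the effects differed by -0.29 (95% interval -0.79 to 0.21). Its unadjusted p was under 0.05 in each fit that left out 1 epiblast, except those without control 3 and without knockout 1.

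*Cbx3*, at 3.88 Mb, encodes HP1γ, a reader of methylated lysine 9 of histone H3, and was among the most abundant neighbours. It was at 577, 563 and 621 CPM in the *Ezh2* controls and 536, 525 and 441 CPM in the knockouts, lower in 3 of 3. The difference was small, 0.853-fold (95% interval 0.720 to 1.01, adjusted p = 0.643, edgeR). In the *Ehmt2* cross the groups overlapped, at 545 to 775 CPM in controls and 528 to 1076 CPM in knockouts, with the highest value of each in epiblast 4.

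*Tcaf2*, the farthest neighbour at 4.88 Mb, was at 3.21, 4.52 and 4.04 CPM in the *Ezh2* controls and 13.5, 6.99 and 5.12 CPM in the knockouts. All knockouts were above all controls, and most of the gap came from knockout 1, the epiblast with the highest visceral endoderm markers. The fold was 2.17 (95% interval 1.07 to 4.40, unadjusted p = 0.0348, adjusted p = 0.572, edgeR), and the exact permutation p was 0.10. Without control 2 and knockout 1, the pair of epiblasts with high visceral endoderm markers, the log2 fold change of *Tcaf2* was 0.74 (SE 0.60) in place of 1.12 (SE 0.45), and without knockout 1 alone it was 0.62. In that comparison of 2 against 2, *Zfp956* was at -0.66 (SE 0.53) in place of -0.90 (SE 0.36) and *Snx10* at -0.53 (SE 0.26) in place of -0.54 (SE 0.19), and all 3 kept their direction with an unadjusted p above 0.05.

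*Gpnmb*, a transmembrane glycoprotein gene at 1.44 Mb, was at 2.85, 0.219 and 0.217 CPM in controls and 3.69, 3.93 and 3.35 CPM in knockouts, on 40, 3 and 3 against 47, 58 and 51 counts. The knockouts were alike and control 1 lay close to them, with a log2 fold change of 1.73 (SE 0.95, adjusted p = 0.703, edgeR). Without control 1 it was 4.01 (adjusted p = 0.340), and without control 3 it was 1.24. *Malsu1*, a mitochondrial ribosome factor gene, was at 125.01, 123.74 and 102.51 CPM against 125.36, 129.62 and 147.62 CPM, so that the separation rested on a gap of less than 1 CPM (log2 fold change 0.20, SE 0.13). Its annotation overlaps *Igf2bp3* on the opposite strand.

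**Figure D4:**
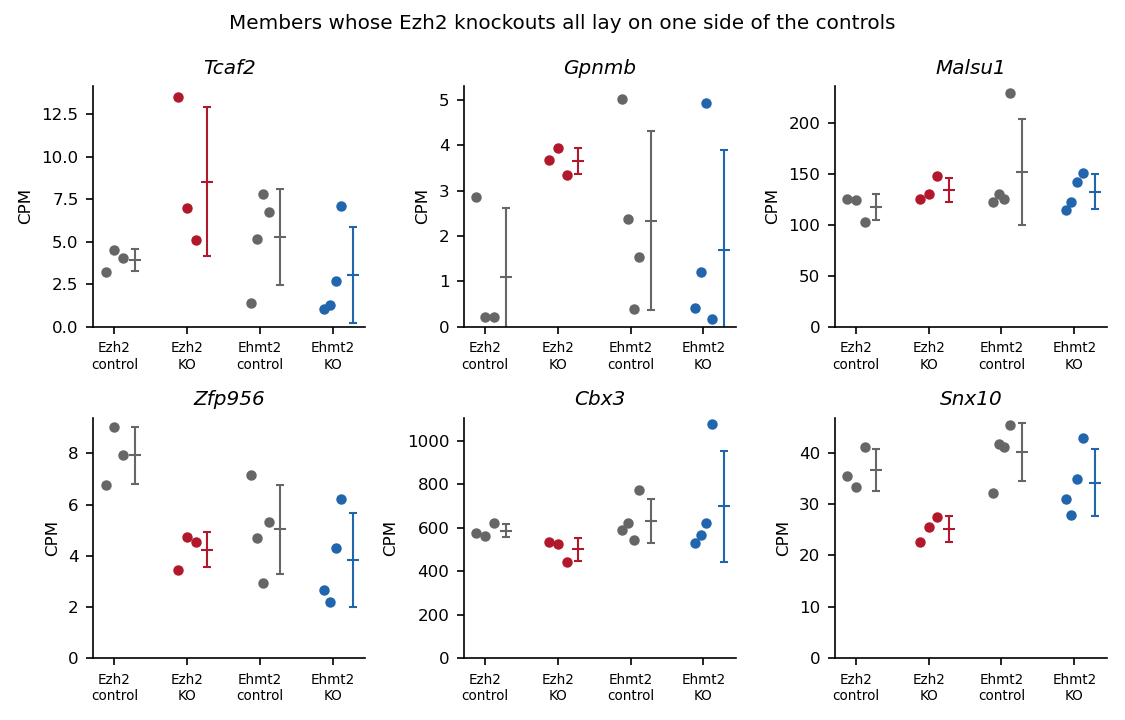
CPM of each epiblast for the 6 neighbours whose *Ezh2* groups did not overlap, in the *Ezh2* cross (controls grey, knockouts red) and the *Ehmt2* cross (controls grey, knockouts blue); bars are the mean and SD, cut at 0. In the *Ehmt2* cross all 6 overlap between control and knockout.

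Among the other abundant neighbours, the splicing factor gene *Hnrnpa2b1* was the highest, at 1187 CPM per kb of transcript in the *Ezh2* controls and 1164 CPM per kb in the knockouts. On that scale *Cbx3* followed at 311, *Tra2a*, also a splicing regulator, at 99.5, *Cycs*, the cytochrome c gene, at 98.8, *Pdia4* at 91.8 and *Cul1* at 68.6 CPM per kb in the controls. *Hnrnpa2b1* was at 0.980-fold in the *Ezh2* knockouts (95% interval 0.844 to 1.14), *Igf2bp3*, an RNA-binding gene of growing tissues, at 0.938-fold (0.795 to 1.11), *Tra2a* at 0.919-fold (0.752 to 1.12), *Cycs* at 0.944-fold (0.804 to 1.11) and the scaffold gene *Mpp6* at 0.866-fold (0.650 to 1.15). The 4 genes of the RNA binding and splicing group had a median log2 fold change of -0.06, from -0.12 to 0.20, and none passed an unadjusted p of 0.05 in either cross.

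The *Gimap* genes, which act in lymphocyte survival, were scarce. Of the 6 listed, 3 were tested, *Gimap8*, *Gimap9* and *Gimap1*, with log2 fold changes of 0.63, 0.35 and 0.35 in the *Ezh2* cross and 0.36, 0.64 and 0.57 in the *Ehmt2* cross, none at an unadjusted p under 0.05. *Gimap1* was the highest of them at 7.14, 8.02 and 8.81 CPM against 10.8, 7.53 and 12.2 CPM in the *Ezh2* cross. The 6 blood and immune markers listed summed to 2.11 to 5.10 CPM there, so markers of those cells were near 0. They summed in the *Ehmt2* cross to 0.601 to 3.01 CPM in the controls and 13.1 to 31.1 CPM in the knockouts. In these knockouts *Cd3e* alone made 12.8 to 29.8 CPM, and the other 5 summed to 0.292 to 3.00 CPM.

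The 8 neighbours under the filter in the *Ezh2* cross were *Nobox*, *Gimap4*, *Gimap6*, *Gimap5*, *Gm28053*, *Doxl2*, *Fam221a* and *Npy*, with 0 to 40 counts in any of its libraries. *Fam221a*, singled out after its values were seen, had 2, 6 and 4 counts in controls and 23, 14 and 10 in knockouts, 0.143, 0.437 and 0.289 CPM against 1.80, 0.950 and 0.656 CPM. Its groups did not overlap, and the exact permutation p was 0.10. *Npy*, which encodes a neuropeptide and is a gene of neurons, had 1 to 8 counts.

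In the *Ehmt2* cross, where the *Ezh2* locus was not targeted, 44 neighbours were tested and none was called by edgeR, beside 0.902% of 13749 genes. That share rests on the term that sets replicate 4 apart: it was 0.204% (28 genes) without the term and 0.516% (71 genes) with the replicate number as a block, with no neighbour called in either. The epiblast marker sum, most of it *Dnmt3b*, was lower in each of these knockouts than in each control. Without *Dnmt3b* the groups overlapped, and the part of these markers in the values that follow was not tested. DESeq2 called 3 of the neighbours, *Tcaf1* and *AI854703* included, beside 2.09% of all genes in that fit. At an unadjusted p under 0.05, 3 were higher in the knockouts (*Zfp212* and *Cycs* included), where 7.46% of all genes were, and 4 were lower (*Tcaf1*, *Sspo*, *Lrrc61* and *AI854703*), where 6.98% of all genes were. These are 6.82% and 9.09% of the neighbours. The median log2 fold change was -0.16, with 16 above and 28 below 0. It was -0.004 for the 583 tested protein-coding genes elsewhere on chromosome 6. For all genes it was -0.01, with 6718 above and 7031 below 0. The median size of the change, regardless of sign, was 0.39 for the neighbours, 0.27 elsewhere on chromosome 6 and 0.25 for all genes. Every knockout lay above every control for 1 neighbour, where 3.27% of all genes did so, and below for *Tcaf1* and *Igf2bp3*, where 3% of all genes did so.

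*Tcaf1* was at 6.43, 15.1, 10.1 and 8.06 CPM in the *Ehmt2* controls and 1.04, 4.41, 4.42 and 1.17 CPM in the knockouts, lower in 4 of 4 (log2 fold change -1.94, SE 0.51, adjusted p = 0.0980, edgeR; 0.00555 to 0.317 over the alternatives). The exact permutation p was 0.02857 for *Tcaf1* and for *Igf2bp3*, the smallest that 4 against 4 allows. *Tcaf2*, next to it, was at 1.39 to 7.79 CPM in the controls and 1.04 to 7.13 CPM in the knockouts (log2 fold change -1.10, SE 0.61). *Igf2bp3* was at 206 to 231 CPM against 173 to 205 CPM, at 0.864-fold (95% interval 0.746 to 1.00).

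*AI854703* had 49, 40, 14 and 37 counts in the *Ehmt2* controls and 1, 1, 3 and 40 in the knockouts. Knockout 4 lay among the controls and the other 3 far below them, with a log2 fold change of -2.98 (SE 0.97, adjusted p = 0.188, edgeR). Without both epiblasts numbered 4 the log2 fold change was -4.07 and the adjusted p 0.0468, and over all alternatives the adjusted p ran from 0.0468 to 0.591. *Sspo* had 59, 42, 25 and 26 counts against 8, 9, 20 and 7 (log2 fold change -1.71, SE 0.63, adjusted p = 0.244, edgeR). *Lrrc61* was at 0.658-fold and *Zfp212* at 1.68-fold, both with overlapping groups and adjusted p-values of 0.252 and 0.280. *Cycs* was at 299, 299, 282 and 321 CPM against 379, 303, 360 and 361 CPM, 1.17-fold (95% interval 1.01 to 1.35), and its unadjusted p of 0.0388 was 0.0593 under the replicate block and 0.0963 without the term for replicate 4 (edgeR).

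The difference between the *Ezh2* and *Ehmt2* effects was tested in 1 fit over all 14 epiblasts, in which 46 neighbours passed the filter. None reached an adjusted p under 0.05 in edgeR's test, beside 0.131% of 15211 genes, the lowest being 0.246 for *Tcaf1*, and DESeq2 called *Tcaf1* alone at 0.0387 (0.0387 to 0.499 over the alternatives), beside 0.861% of all genes in that fit. At an unadjusted p under 0.05 the *Ezh2* effect was the higher one for 3, *Tcaf2*, *Tcaf1* and *Sspo*, where 5.25% of all genes were, and the lower one for 2, *Cycs* included, where 4.29% of all genes were. For *Tcaf1* the difference was 2.45 (SE 0.68), made up of 0.50 in the *Ezh2* cross and -1.94 in the *Ehmt2* cross. For *Tcaf2* it was 2.23 (SE 0.82), from 1.12 and -1.10, and for *Sspo* 3.18 (SE 1.16), from 1.47 and -1.71. The *Sspo* difference ran from 2.51 without *Ezh2* knockout 2 to 4.79 without *Ezh2* control 2. For *Cycs* it was -0.30 (SE 0.13), the larger part of it lying in the *Ehmt2* cross, and its unadjusted p of 0.0442 was 0.0786 under the replicate block and 0.0805 without the term for replicate 4 (edgeR).

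No neighbour had an unadjusted p under 0.05 in both crosses, and the share of all genes that did was not computed. At that p 4.34% of all genes were higher and 3.65% lower in the *Ezh2* cross, and 7.46% and 6.98% in the *Ehmt2* cross. The absence is therefore not read as a trait of the neighbours. The neighbours within 1 Mb had log2 fold changes from -1.71 to 0.75 in the *Ehmt2* cross and from -0.90 to 1.47 in the *Ezh2* cross. Of the 5 with a difference at an unadjusted p under 0.05, 1 lay within 1 Mb of *Ezh2*, namely *Sspo*. In the *Ezh2* cross, 17 of the 44 tested neighbours lay that near, so this count is not read as an effect of distance. A p above the threshold does not show that the crosses acted alike. The interval of the difference lay within 2-fold for 13 of the 46 neighbours, *Cul1* and *Pdia4* among them. These are 28.3% of the neighbours, beside 35.1% of all genes.

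**Figure D5:**
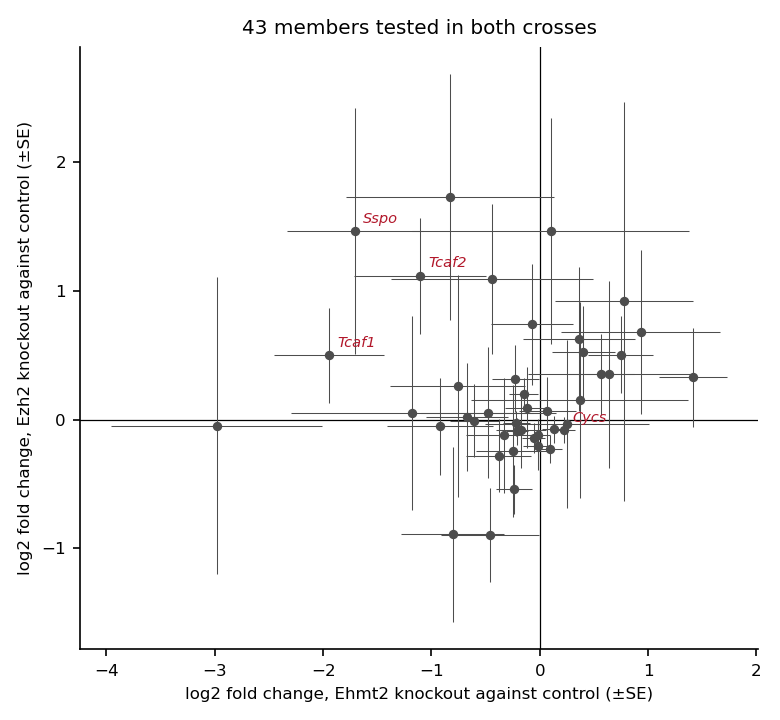
log2 fold change in the *Ezh2* cross against that in the *Ehmt2* cross, each with its SE, for the 43 neighbours tested in both. The named points are 4 of the 5 whose 2 effects differed at an unadjusted p under 0.05, and 3 of them, *Tcaf1*, *Tcaf2* and *Sspo*, lie to the left of 0 and above it.

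As a whole, the 52 neighbours took 0.414% to 0.441% of the counts in each *Ezh2* cross library. Their summed level was 4477, 4353 and 4231 CPM in the controls and 4107, 4104 and 4364 CPM in the knockouts, with overlap, and 40 to 45 of them had at least 10 counts in each library.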

How the data were processed

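Single E6.25 epiblasts were profiled by RNA-seq from 750 pg of RNA each, which was amplified before the libraries were made, with no statement that strand was kept. The authors trimmed reads to 40 nt, aligned them with TopHat2 to GRCm38 and counted them with HTSeq-count per Ensembl release 74 transcript, and the deposited values are these raw counts. Of 72515 listed transcripts, 70021 (96.6%) matched GENCODE vM21 on GRCm38 by identifier, giving 22134 genes. A row of reads not aligned in both *Ehmt2* files numbered 4 (12.6% and 13.3% of their column) was left out.

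Each gene was represented by the transcript with the highest mean count, absent transcripts being 0. Genes passing filterByExpr were scaled by TMM and tested with edgeR 4.0.16 (glmQLFit, glmQLFTest, in R 4.3.3), with Benjamini-Hochberg adjustment over all genes tested. The *Ehmt2* fit had a term for replicates 1 to 3 against replicate 4, which is not part of the study's methods and was added because the study's list of changed genes sets knockout 4 against control 4, and the difference of effects came from 1 fit of 14 epiblasts. SE was derived from the log2 fold change and its F statistic. Exact permutation tests were two-sided on CPM, with smallest p-values of 0.10 (3 against 3) and 0.02857 (4 against 4). Scripts were tested on simulated counts. Groups came from the genotype labels. Deviations of same-numbered *Ehmt2* epiblasts from their group means correlated at 0.121, 0.158, 0.254 and 0.497, but those with different numbers among 1 to 3 correlated as much, at 0.117 to 0.244, so that only number 4 stood apart as a pair. The labels do not say that the numbers are pairs, and the block is given where it changed a result. Alternatives included DESeq2 1.42.0, RLE scaling, no filter, other transcript choices and leaving out epiblasts.

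The window, lists and named genes were chosen with earlier results of these data known. Named are neighbours within 1 Mb of *Ezh2* that were tested, those whose groups did not overlap, those at an unadjusted p under 0.05, the 5 most abundant and examples of each group; results of 1 neighbour that this rule would name are not reported here, though it is counted. Mean CPM is per library. The ranking of abundant neighbours in the text used CPM per kb of annotated transcript. Other comparisons of level between genes used CPM not scaled by length.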

Additional observations from a re-analysis of the deposited data

Results flagged for a closer look

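In groups of 4, single epiblasts were checked for standing apart from the other 3 in the *Ehmt2* cross, over 54 groups, and 4 did. Chance alone gives about 1 in 20 groups, and no explanation was weighed. *Zfp746* was at 12.4 CPM in knockout 4, below the 17.3 to 17.8 CPM of the other knockouts. *Krba1* was at 40.6 CPM in knockout 2, above the 28.1 to 28.8 CPM of the others. *AI854703* was at 1.46 CPM in knockout 4, above the 0.0697 to 0.190 CPM of the others. *Malsu1* was at 229 CPM in control 4, above the 122 to 130 CPM of the others. Of the 4, 3 fell in an epiblast numbered 4, the libraries that stood apart from their groups.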

How the results depend on the processing

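The absence of a called neighbour in the *Ezh2* cross held in each of the 13 alternatives. Over all genes, DESeq2 called 48 (0.343%) and the others 0 to 8, so an absence among 44 neighbours says little. In that cross 25 of 44 neighbours were under 10 CPM, where the median 95% interval spans 2.71-fold either way. With all epiblasts left out in turn, the *Ezh2* cross gave a median of 0.0093 to 0.1955 and 0 to 3 neighbours at an unadjusted p under 0.05 in either direction. There, 2 neighbours were higher without control 1, 0 without control 3 and 3 without knockout 3. The lower ones numbered 3 without control 1, 1 without control 2, knockout 1 or knockout 3, and 0 without control 3. The *Ehmt2* cross gave a median of -0.2525 to -0.0539, 0 to 1 called neighbours, 1 to 3 higher and 3 to 7 lower ones. Over all genes, 0.36% to 1.41% were called in these fits. The called one was *AI854703* without control 4 or knockout 4, where 1.41% of all genes were called in each. It was another neighbour without knockout 1, where 0.666% were. The difference of effects gave 0 called neighbours, beside 0.0253% to 0.119% of all genes, and 2 to 6 higher and 0 to 3 lower ones. Shares of all genes at an unadjusted p were not computed for the alternatives.

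Without a filter the *Ezh2* median was 0.1646. Leaving out *Ezh2* control 2 and knockout 1, chosen after seeing the data, gave a median of -0.001 and 0 lower neighbours. The *Ehmt2* cross had 3 called neighbours with DESeq2, 2 without a filter, 1 with protein-coding transcripts and 1 without both epiblasts numbered 4, also chosen after seeing the data, while calls over all genes went from 124 to 287, 246, 125 and 205 (2.09%, 1.16%, 0.96% and 1.47%) in that order. In the difference DESeq2 called 1, and 1 neighbour was lower without a filter and without the term for the comparison set. Without both epiblasts numbered 4 the difference had 5 higher and 1 lower. The cause of these shifts was not tested.

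When the replicate number entered as a block, the *Ezh2* cross had 2 higher (*Gpnmb*, *Sspo*) and 1 lower neighbour (*Snx10*) at an unadjusted p under 0.05, the *Ehmt2* cross had 2 higher, *Cycs* being lost, and the difference had 1 lower, *Cycs* being lost there too. In the *Ezh2* cross, deviations of same-numbered epiblasts correlated at -0.0265, -0.19 and 0.243, and those with different numbers at -0.301 to 0.321. These values do not settle which epiblasts shared a litter. Over all genes the block gave 71 calls in place of 124 in the *Ehmt2* cross, and leaving out the term for replicate 4 gave 28. *Repin1* was at -0.00515 under the block. No neighbour was called under the block.

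Values near 0 changed sign in some fits, none of them called. Without *Ezh2* control 2 and knockout 1, *Cntnap2* was at 0.316, *Zfp786* at -0.272, *Zfp282* at 0.225, *Rarres2* at -0.804 and *Hnrnpa2b1* at 0.018. *Lrrc61* was at 0.012 with all transcripts in the fit. Without both epiblasts numbered 4, *Cbx3* was at -0.032 in the *Ehmt2* cross. Leaving out 1 epiblast at a time moved *AI854703* from -1.172 to 0.538, *Cntnap2* from -0.753 to 0.062, *Hnrnpa2b1* from -0.104 to 0.00977, *Krba1* from -0.194 to 0.343, *Lrrc61* from -0.183 to 0.174, *Rarres2* from -0.576 to 1.21, *Repin1* from -0.232 to 0.313, *Zfp282* from -0.452 to 0.195, *Zfp746* from -0.361 to 0.109 and *Zfp786* from -0.438 to 0.997 in the *Ezh2* cross. It moved *Cbx3* from -0.033 to 0.158 and *Malsu1* from -0.241 to 0.0016 in the *Ehmt2* cross, and the difference for *Pdia4* from -0.153 to 0.00613.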
